A study of Homo sapiens with 9 samples.

Results

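PAEP, SCG2, ANXA10, CEMIP, GXYLT2, TEX19, PAX8-AS1 and NEAT1 are 8 genes picked for large rises in HT1080 cells, either with the enzyme methylthioadenosine phosphorylase (MTAP), with an MTAP inhibitor, or in a step with each. PAEP, SCG2, CEMIP, ANXA10, GXYLT2 and TEX19 encode proteins, those of PAEP and SCG2 being secreted, and PAX8-AS1 and NEAT1 make RNAs that are not translated. The 8 were found through the gene symbols of the array's annotation, in a deposited table where 9453 genes had a probe set of their own with values. 7 of the 8 had a probe set of their own with values, 1 probe set each, and all 7 were among the 7011 genes tested. CEMIP and GXYLT2 each had 1 more probe set of their own and PAX8-AS1 had 2 more, all without values. NEAT1 had none of its own, since its 9 probe sets are annotated jointly to NEAT1 and to MIR612, a microRNA gene that lies inside it, and 5 of these had values. Those 5 are given by their probe set names. The 8 genes were chosen by these same log2 values, that is by their differences between the groups, so those differences are descriptions, with a standard error (SE) and no test.

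RNA came from HT1080, a line grown from a human fibrosarcoma, on 9 Affymetrix arrays. Cells labelled MTAP-negative and untreated gave 3 arrays, cells labelled MTAP-positive and untreated gave 3, and MTAP-positive cells kept for 48 hours in 10 µM MT-DADMe-ImmA, an inhibitor of the enzyme, gave 3. All were grown in DMEM, and no vehicle is named for the untreated cells. HT1080 is known to lack the MTAP gene, and the sources used here do not say how the MTAP-positive cells were made, what promoter drives their MTAP or whether they are 1 clone. The design text calls the 3 arrays of a group biological replicates, without saying whether they came from separate passages or days, so errors and p-values measure the spread between these arrays, and 3 arrays a group limit the precision. Values are log2 expression made by the authors with RMA, and the deposited table kept only probe sets that reached 6.64 (log2 of 100) on at least 3 arrays. Where a group mean lies below 6.64, its fold is counted from 6.64 and given as a lower bound.

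PAEP encodes glycodelin, a secreted glycoprotein of the lipocalin family that the endometrium makes in the secretory phase. SCG2 encodes secretogranin II, a granin packed into dense-core vesicles of neuroendocrine cells and cut into smaller peptides. CEMIP binds hyaluronan and is needed for its breakdown outside the cell. ANXA10 belongs to the annexins, which as a family bind membrane phospholipids with calcium. GXYLT2 adds xylose to O-linked glucose on the EGF repeats of Notch receptors. TEX19 is made in the germ line and placenta, and in the mouse its relatives restrain retrotransposons. NEAT1 is the RNA scaffold of paraspeckles, nuclear bodies that hold RNA-binding proteins, and PAX8-AS1 is transcribed from the opposite strand of the transcription factor gene PAX8.

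The sequences around the start sites of 4 of these genes are shown, because they set the 2 shapes described next side by side: PAEP and CEMIP, highest with inhibitor, and ANXA10 and GXYLT2, highest in untreated MTAP-positive cells. Each runs from 250 bases before to 50 bases after the start site, from RefSeq on GRCh38.p14, plus strand: chr9:135561506-135561805 for PAEP, chr15:80779120-80779419 for CEMIP, chr4:168092287-168092586 for ANXA10 and chr3:72887796-72888095 for GXYLT2. Capitals mark matches to 7 motifs searched on both strands.
PAEP: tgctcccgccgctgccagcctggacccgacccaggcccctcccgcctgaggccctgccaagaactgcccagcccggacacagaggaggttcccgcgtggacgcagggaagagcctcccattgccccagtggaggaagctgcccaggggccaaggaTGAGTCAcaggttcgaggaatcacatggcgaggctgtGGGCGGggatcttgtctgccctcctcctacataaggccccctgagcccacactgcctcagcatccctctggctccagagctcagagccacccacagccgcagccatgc
CEMIP: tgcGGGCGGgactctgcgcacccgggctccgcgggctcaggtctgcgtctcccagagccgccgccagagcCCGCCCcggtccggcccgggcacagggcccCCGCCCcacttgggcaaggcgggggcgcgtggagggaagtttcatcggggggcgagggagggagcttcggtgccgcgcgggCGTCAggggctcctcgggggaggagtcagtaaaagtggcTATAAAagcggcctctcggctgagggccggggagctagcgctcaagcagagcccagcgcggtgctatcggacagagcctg
ANXA10: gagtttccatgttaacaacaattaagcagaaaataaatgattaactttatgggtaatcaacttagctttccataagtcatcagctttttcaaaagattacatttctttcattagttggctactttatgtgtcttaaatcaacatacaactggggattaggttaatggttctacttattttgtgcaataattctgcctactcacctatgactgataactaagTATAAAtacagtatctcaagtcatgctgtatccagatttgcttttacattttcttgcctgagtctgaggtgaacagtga
GXYLT2: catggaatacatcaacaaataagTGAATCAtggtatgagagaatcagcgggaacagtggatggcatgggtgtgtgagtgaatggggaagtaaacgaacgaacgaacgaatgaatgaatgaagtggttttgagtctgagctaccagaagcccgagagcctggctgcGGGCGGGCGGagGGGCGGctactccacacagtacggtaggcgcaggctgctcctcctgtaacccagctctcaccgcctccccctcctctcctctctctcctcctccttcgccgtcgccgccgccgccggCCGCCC
The AP-1 motif TGANTCA occurs in the PAEP sequence at position -95 from the start site (TGAGTCA) and in the GXYLT2 sequence at -227 (TGAATCA), against 7.71% of 35116 RefSeq sequences of the same length. The TATA motif TATAAA starts at -29 in ANXA10 and at -30 in CEMIP, against 11.5% of all. The GC box GGGCGG occurs 3 times in CEMIP, 4 times in GXYLT2, with overlap between some, and 1 time in PAEP, against 45.0% of all with at least 1. CEMIP also holds TGACG, the 5-base part of the cAMP response motif, at -69 on the opposite strand (CGTCA), as 24.6% of all do. That part lies within the full motif TGACGTCA. None of the 4 holds the full motif (1.85% of all), the hypoxia motif ACGTG (21.4%) or CCAAT (34.6%). The ANXA10 sequence has 32.7% G and C and 0 CG pairs, while that of CEMIP has 73.0% and 32 CG pairs, against medians of 58.7% and 14. PAX8-AS1 has 2 start sites in the table, of which the first holds a GC box at -69 and the other none of the 7 motifs. Genes with the same shape thus shared no motif that the other shape lacked. A match describes letters only and is not a binding site.

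MTAP itself followed the labels. Its mRNA read 11.58 ± 0.19 with MTAP against 4.56 ± 0.41 without, a gap of at least 30.6-fold, and 11.20 ± 0.10 with inhibitor (log2, SD, n = 3). Of 13 mesenchymal markers 10 had values, with VIM, SPARC and LGALS1 among the brightest, and of 10 epithelial markers KRT7, KRT8 and KRT18 had values while EPCAM and CDH1 did not. Over all arrays KRT18 averaged 12.35, KRT8 9.87 and KRT7 7.12, against 13.98 for VIM and 11.78 for FN1, another mesenchymal marker (log2). None of the endothelial, melanocyte or germ cell markers listed (4, 5 and 5) had values, and neither did CHGA or SYP of 6 neuroendocrine markers, where NCAM1 was the exception (7.45, 7.66 and 7.51 in MTAP-negative, MTAP-positive and inhibitor-treated cells, group means). Of 6 blood markers LYZ had values (4.89, 7.35 and 5.68) and PTPRC did not. These are bulk samples, in which fewer cells that make an RNA and less of it per cell cannot be told apart. For the ACTB control, the level at the 5' end minus that at the 3' end, a sign of RNA integrity, was -2.50 ± 0.90 in MTAP-negative, -1.43 ± 0.45 in MTAP-positive and -1.64 ± 0.66 in inhibitor-treated cells (log2, SD, n = 3), and its part in the results was not tested beyond a fit with it as a covariate.

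The 7 genes with a probe set of their own fell into 3 shapes. PAEP, PAX8-AS1, SCG2 and CEMIP had means that were lowest without MTAP and highest with inhibitor. ANXA10 and GXYLT2 were highest in untreated MTAP-positive cells and lay between with inhibitor. TEX19 was highest with inhibitor and had its lowest mean in untreated MTAP-positive cells. The 3 MTAP-positive arrays lay above all MTAP-negative arrays for 6 of 7 genes, where 19.5% of 7010 tested genes did. Inhibitor-treated arrays lay above all MTAP-positive arrays for 4 of 7 (16.2% of tested genes) and below them for 1 of 7 (20.2%). They lay above all MTAP-negative arrays for 7 of 7 (27.3%), and PAEP, SCG2 and PAX8-AS1 were apart and higher at both steps (3.41%). Nothing is read from these counts, since the choice of genes used them.

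**Figure D1:**
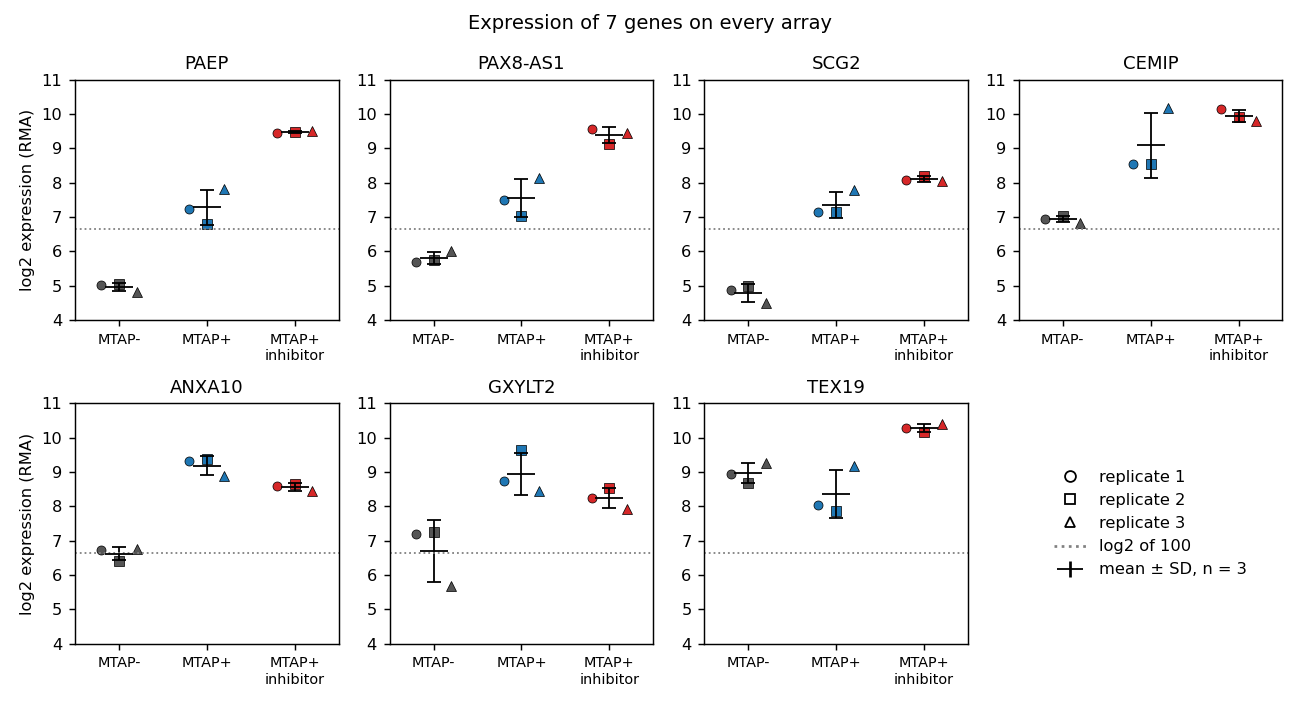
Log2 expression (RMA, y axis) of 7 genes on each of 9 arrays, by group. Symbols are replicates 1 to 3, bars the mean ± SD (n = 3), and the dotted line log2 of 100; PAEP goes from a mean of 4.96 to 7.28 to 9.48, while ANXA10 peaks at 9.19 in MTAP-positive cells.

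PAEP had the largest inhibitor difference of all 7010 genes. It read 5.02, 5.04 and 4.81 on MTAP-negative replicates 1 to 3, 7.23, 6.78 and 7.82 on MTAP-positive ones, and 9.45, 9.48 and 9.49 with inhibitor (log2). The 3 groups were fully apart, and the treated arrays lay within a few hundredths of each other while the MTAP-positive arrays spread over more than 1 log2 unit. PAEP was 4.59-fold higher with inhibitor than in untreated MTAP-positive cells (2.20 ± 0.21, log2 ± SE), a difference of 1.81 with array weights. No MTAP-negative array reached 6.64, so counted from there PAEP was higher by at least 1.55-fold with MTAP and at least 7.12-fold with MTAP and inhibitor. The array values themselves differed by 2.32 ± 0.21 and 4.52 ± 0.21 (log2 ± SE). After another quantile normalization these were 1.87 and 4.09, and with array weights the first was 2.72. PAEP was above the dim-gene filter of 7.96 only on the 3 treated arrays, and its probe set is of the kind (_s_at) that can match several transcripts.

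PAX8-AS1 followed the same order. It read 5.68, 5.76 and 6.01 without MTAP, 7.50, 7.03 and 8.13 with MTAP, and 9.58, 9.13 and 9.45 with inhibitor (log2, replicates 1 to 3). The groups did not overlap, and again MTAP-positive replicate 3 was nearest to the treated arrays. The inhibitor-treated cells were 3.56-fold above untreated MTAP-positive cells (1.83 ± 0.24, log2 ± SE), the third largest such difference. MTAP-positive cells were at least 1.88-fold above MTAP-negative cells, whose arrays were all under 6.64, and the array values differed by 1.74 ± 0.24 (log2 ± SE). That difference was 2.17 with array weights. From MTAP-negative to treated cells the array values differed by 3.57 ± 0.24 (log2 ± SE). This became 3.89 with the ACTB difference as a covariate and 3.36 after another quantile normalization. The 2 other probe sets of PAX8-AS1 had no values. PAX8, the gene on the opposite strand, read 7.62 ± 0.09, 7.53 ± 0.08 and 7.65 ± 0.05 in the same order of groups (log2, SD, n = 3). PAX8 was under the dim-gene filter and was not tested, and all its groups overlapped.

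SCG2 also followed this order. Its values were 4.88, 4.99 and 4.49 in MTAP-negative cells, 7.14, 7.14 and 7.79 in MTAP-positive cells, and 8.09, 8.20 and 8.04 with inhibitor (log2, replicates 1 to 3). All groups were apart, though MTAP-positive replicate 3 came close to the treated arrays. With MTAP its array values were 2.57 ± 0.19 higher (log2 ± SE), but all 3 MTAP-negative arrays were under 6.64. Counted from there, SCG2 was at least 1.64-fold higher with MTAP and at least 2.77-fold higher with MTAP and inhibitor. After another quantile normalization the array values differed by 2.07 and 2.85 in the same order. The inhibitor-treated cells were 1.69-fold above untreated MTAP-positive cells (0.76 ± 0.19, log2 ± SE, rank 112), a difference of 0.44 with array weights. Like PAEP, SCG2 was above 7.96 only on the 3 treated arrays.

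The second step of CEMIP differed in size with and without 1 array. It read 6.95, 7.02 and 6.84 without MTAP, 8.55, 8.54 and 10.18 with MTAP, and 10.15, 9.92 and 9.80 with inhibitor (log2, replicates 1 to 3). MTAP-positive replicate 3 lay above all treated arrays, so these groups overlapped, while both lay above every MTAP-negative array. CEMIP was 4.44-fold higher with MTAP (2.15 ± 0.36, log2 ± SE) and 8.10-fold higher with MTAP and inhibitor (3.02 ± 0.36). With array weights the first difference became 2.92, and with the ACTB difference as a covariate the second became 3.22. The inhibitor difference was 0.87 ± 0.36 (log2 ± SE) with all arrays and 1.41 without MTAP-positive replicate 3, and 0.07 with array weights. Between arrays of the same replicate number it was 1.60, 1.38 and -0.38 for replicates 1 to 3. Without MTAP-positive replicate 3 the difference with MTAP was 1.60.

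ANXA10 was high in both kinds of MTAP-positive cells and lower with inhibitor than without. It read 6.73, 6.41 and 6.75 without MTAP, 9.31, 9.38 and 8.88 with MTAP, and 8.59, 8.66 and 8.44 with inhibitor (log2, replicates 1 to 3). The groups were apart in each comparison, with the treated arrays below all untreated MTAP-positive arrays. ANXA10 was at least 5.84-fold higher with MTAP and at least 3.79-fold higher with MTAP and inhibitor than in MTAP-negative cells. The inhibitor difference was -0.62 ± 0.15 (log2 ± SE).

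GXYLT2 had the same shape with more scatter. Its values were 7.19, 7.24 and 5.67 in MTAP-negative cells, 8.73, 9.65 and 8.45 in MTAP-positive cells, and 8.25, 8.53 and 7.94 with inhibitor (log2, replicates 1 to 3). Every MTAP-positive and treated array lay above the MTAP-negative ones, but treated and untreated MTAP-positive arrays overlapped. GXYLT2 was 4.74-fold higher with MTAP (2.24 ± 0.41, log2 ± SE) and differed by -0.70 ± 0.41 with inhibitor, by -0.35 without MTAP-positive replicate 2 and by -0.39 with array weights. Within replicate numbers 1 to 3 the inhibitor difference of GXYLT2 was -0.48, -1.11 and -0.51. MTAP-negative replicate 3, its lowest array and the one under 6.64, also had the most negative ACTB difference (-3.52). The difference with MTAP was 1.73 without that array and 1.35 with the ACTB difference as a covariate. From MTAP-negative to treated cells the difference of 1.54 ± 0.41 became 1.03 without it and 0.82 with the covariate.

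TEX19 differed from the rest. It read 8.95, 8.69 and 9.26 without MTAP, 8.04, 7.87 and 9.16 with MTAP, and 10.28, 10.18 and 10.41 with inhibitor (log2, replicates 1 to 3). All treated arrays lay above all others, while MTAP-positive and MTAP-negative arrays overlapped through MTAP-positive replicate 3. TEX19 was 3.82-fold higher with inhibitor than in untreated MTAP-positive cells (1.93 ± 0.29, log2 ± SE), the second largest inhibitor difference, and 2.51-fold higher than in MTAP-negative cells. With array weights the inhibitor difference was 1.39. From MTAP-negative to treated cells the difference of 1.33 ± 0.29 became 1.67 with the ACTB difference as a covariate. With MTAP, TEX19 differed by -0.61 ± 0.29 (log2 ± SE), by -1.01 without MTAP-positive replicate 3 and by -0.07 with array weights. Within replicate numbers 1 to 3 this difference was -0.91, -0.82 and -0.10.

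**Figure D2:**
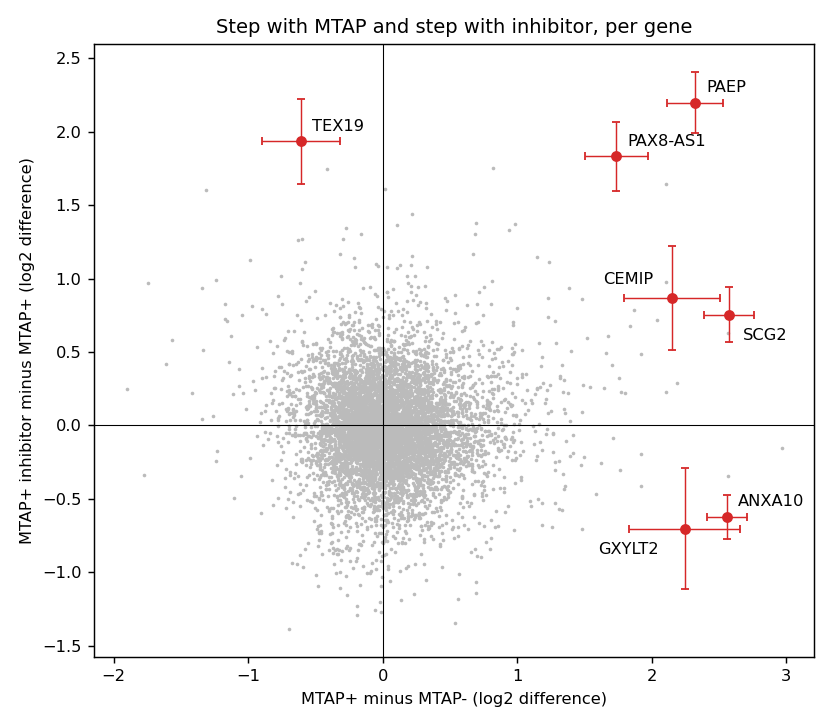
Log2 difference between MTAP-positive and MTAP-negative cells (x axis) against that between inhibitor-treated and untreated MTAP-positive cells (y axis) for 7010 genes (grey). The 7 genes with a probe set of their own are red with SE bars; PAEP (2.32, 2.20) and PAX8-AS1 (1.74, 1.83) lie upper right, ANXA10 and GXYLT2 lower right, and TEX19 upper left. For PAEP, PAX8-AS1 and SCG2 the x value rests on MTAP-negative arrays under 6.64.

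The 3 MTAP-positive arrays were not alike. For 7 of 7 genes, MTAP-positive replicate 3 was the array nearest to the mean of the treated group, from below for PAEP, PAX8-AS1, SCG2 and TEX19 and from above for CEMIP, ANXA10 and GXYLT2. Compared with the mean of MTAP-positive replicates 1 and 2, replicate 3 was 0.82 higher for PAEP, 0.86 for PAX8-AS1, 0.66 for SCG2, 1.64 for CEMIP and 1.21 for TEX19 (log2). It differed by -0.47 for ANXA10 and by -0.74 for GXYLT2. Among the 5 joint probe sets of NEAT1, the nearest array was replicate 1 for 214657_s_at, replicate 2 for 234989_at and replicate 3 for the others. Over all 7010 genes, replicate 3 was the nearest MTAP-positive array for 46.3%, replicate 2 for 29.6% and replicate 1 for 24.1%, and over the 1042 genes called for the inhibitor (limma, adjusted p below 0.05; 1589 with the replicate block) the share for replicate 3 was 57.8%. The ACTB difference of replicate 3 was -1.92, against -1.33 and -1.03 in replicates 1 and 2, and its part here was not tested.

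**Figure D3:**
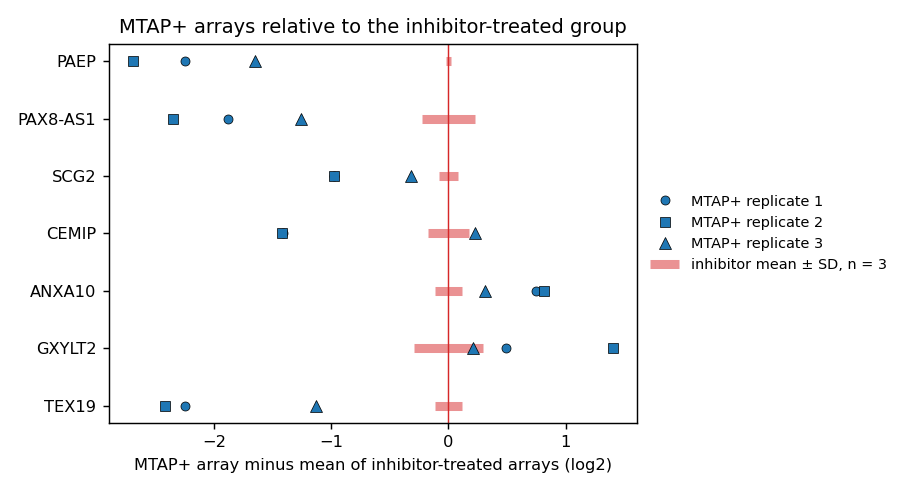
Each MTAP-positive array minus the mean of the 3 inhibitor-treated arrays (log2, x axis) for 7 genes (y axis). Symbols are replicates 1 to 3 and red bars the SD of the treated arrays around their mean (n = 3); the triangle, replicate 3, is nearest to the line at 0 for each gene.

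The 5 probe sets annotated to NEAT1 with MIR612 did not run alike. In 3 of them all MTAP-positive arrays lay above all MTAP-negative ones (19.5% of tested genes). Probe set 224566_at read 9.45, 9.13 and 9.30 without MTAP, 10.50, 10.79 and 10.89 with MTAP, and 10.79, 10.94 and 11.01 with inhibitor (log2, replicates 1 to 3). The MTAP-positive arrays lay above all MTAP-negative ones and overlapped the treated ones. For 224566_at the difference was 1.43 ± 0.13 with MTAP and 0.19 ± 0.13 with inhibitor (log2 ± SE). Probe set 224565_at gave 0.78 ± 0.20 and 0.27 ± 0.20 in the same order. Within replicate numbers 1 to 3 the inhibitor difference was 0.29, 0.15 and 0.12 for 224566_at. For 224565_at it was 0.54, 0.15 and 0.11. Probe set 214657_s_at, whose MTAP-negative arrays (5.50 to 5.89) were all under 6.64, was at least 1.75-fold higher with MTAP and differed by -0.36 ± 0.14 with inhibitor, with all treated arrays below the untreated MTAP-positive ones (20.2% of tested genes).

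In the other 2 probe sets all treated arrays lay above the untreated MTAP-positive ones (16.2% of tested genes). Probe set 234989_at read 9.17, 8.60 and 7.98 without MTAP, 7.73, 9.55 and 9.15 with MTAP, and 10.44, 11.05 and 10.64 with inhibitor (log2, replicates 1 to 3). Here the untreated groups overlapped and all treated arrays lay above them. It was 3.72-fold higher with inhibitor than in untreated MTAP-positive cells (1.90 ± 0.44, log2 ± SE). Probe set 227062_at was at least 2.46-fold higher with inhibitor, with treated arrays at 8.34, 7.06 and 8.42 and MTAP-positive ones at 6.17, 6.54 and 7.04. Against MTAP-negative cells, treated arrays were higher without overlap in all 5 probe sets (27.3% of tested genes). In 227062_at this was by a narrow gap, with treated replicate 2 at 7.06 and MTAP-negative replicate 1 at 7.05. NEAT1 is made as a short and a long RNA that share their start, and the sources used here do not say which of them each probe set binds. Of the 4 joint probe sets without values, 1 carries an accession that the RefSeq table gives to SPRY4.

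**Figure D4:**
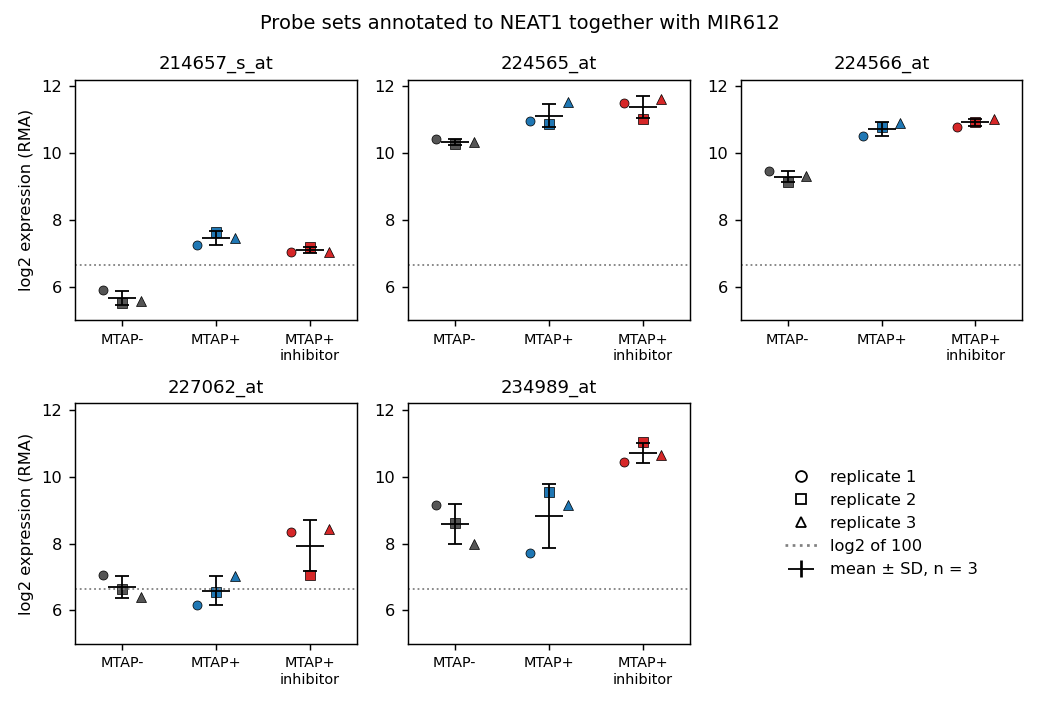
Log2 expression (RMA, y axis) of the 5 probe sets annotated to NEAT1 and MIR612 on each array, by group, with the mean ± SD (n = 3) and a dotted line at log2 of 100. In 224566_at the step lies between MTAP-negative and MTAP-positive cells (9.29 to 10.73), and in 234989_at between untreated and treated MTAP-positive cells (8.81 to 10.71).

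Neighbouring genes were compared next. The choice of the 8 genes did not use their values, but these come from the same 9 arrays and are no independent evidence. The arrays of ABHD17C, below, were added after its values were seen. On the chromosome, the nearest tested gene on each side of each of the 8 was taken from the order of genes in RefSeq, giving 16 genes. With MTAP 3 of the 16 rose and 1 fell (limma, Benjamini-Hochberg adjusted p below 0.05), where 11.7% and 7.36% of 7010 genes did. With inhibitor 3 rose and 2 fell (6.36% and 8.50% of all), and from MTAP-negative to treated cells 6 rose and 3 fell (19.3% and 18.0%). With MTAP, FARSB (on 1 side of SCG2, 21 genes between) fell and CSNK1D (on 1 side of TEX19, 4 genes between) rose, calls lost in 5 and 7 of 17 alternatives, among them without MTAP-negative or MTAP-positive replicate 3. With inhibitor, WDFY1 (SCG2, 3 genes between) rose and CAMSAP1 (PAEP, 11 genes between) fell, calls lost in 4 and 9 of 17, among them without treated replicate 2 or 3. Of 1336 genes called with MTAP 61.4% were higher, against 43.4% with arrays centred on their medians and 48.6% after another quantile normalization, and of 2613 called from MTAP-negative to treated cells 51.7% were higher, against 42.4% with centred arrays.

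ABHD17C, directly beside CEMIP on chromosome 15 with no gene listed between them, rose with MTAP and was highest with inhibitor. ABHD17C belongs to a family of enzymes that remove palmitate from membrane proteins such as N-Ras. It read 7.61, 7.47 and 7.50 without MTAP, 9.09, 8.90 and 9.60 with MTAP, and 9.79, 9.90 and 9.72 with inhibitor (log2, replicates 1 to 3). Its 3 groups were apart, with means in the same order as those of CEMIP. ABHD17C rose 3.18-fold with MTAP (1.67 ± 0.16, log2 ± SE; limma, adjusted p = 1.52e-04), rank 26 of 7010. It was 4.85-fold higher in inhibitor-treated than in MTAP-negative cells (2.28 ± 0.16; limma, adjusted p = 1.17e-05). Both calls held in all 17 alternatives. With inhibitor it rose by 0.61 ± 0.16 (limma, adjusted p = 0.0293), a call lost in 7 of 17 alternatives: with only those groups fitted, with array weights, and without MTAP-positive replicate 1 or 2 or any 1 treated array (adjusted p from 0.0680 to 0.0923 where 1 array was left out). MESD, which overlaps the other end of CEMIP and encodes a chaperone of LDL receptor family proteins, did not rise: it differed by -0.05 with MTAP (adjusted p = 0.848) and fell by 0.61 from MTAP-negative to treated cells (adjusted p = 0.00678).

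**Figure D5:**
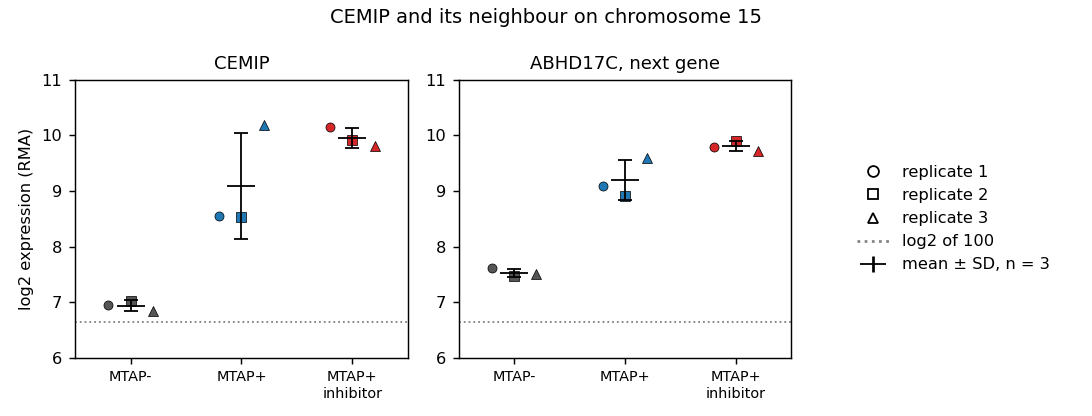
Log2 expression (RMA, y axis) of CEMIP and of ABHD17C, its neighbour on chromosome 15, on each array by group, with the mean ± SD (n = 3). In both genes replicate 3, a triangle, is the highest of the MTAP-positive arrays (10.18 and 9.60).

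The other nearest tested genes lay farther off, with at least 1 gene between or overlapping. On 1 side of PAX8-AS1, IL1B, the gene of interleukin 1 beta, rose by 0.58 ± 0.11 with MTAP (log2 ± SE; limma, adjusted p = 0.00574, and 0.0689 with the ACTB covariate), with 18 genes between. Beside PAEP, MRPS2 and CAMSAP1 missed the threshold with MTAP, at 0.16 and 0.30 (adjusted p = 0.384 and 0.0625), though CAMSAP1 passed with the replicate block. Beside NEAT1, MALAT1, another abundant nuclear RNA, differed by -0.19 ± 0.30 with MTAP and by 0.63 ± 0.30 with inhibitor (log2 ± SE; adjusted p = 0.692 and 0.184), and passed for the inhibitor with the replicate block. MSMO1, a sterol synthesis enzyme and the nearest tested gene on 1 side of ANXA10 with 20 genes between, rose by 1.27 with inhibitor (adjusted p = 0.00155), while ANXA10 was lower there.

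Related genes were counted in 8 lists, 1 or more for each of the 8 genes, which held 68 tested genes in all. With MTAP 8 rose and 5 fell, 19.1% of the 68, as among all genes (19.1%). With inhibitor 6 rose and 8 fell (20.6% against 14.9%), and from MTAP-negative to treated cells 16 rose and 18 fell (50% against 37.3%). The count of 13 with MTAP became 6 without MTAP-negative replicate 1 or 3 or MTAP-positive replicate 3, and 21 with the replicate block. The count of 14 with inhibitor became 9, 6 and 6 without treated replicate 1, 2 and 3.

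Of 9 tested genes of the regulated secretory pathway, in which SCG2 protein travels, 3 rose and 0 fell with MTAP (11.7% and 7.36% of all genes), and 6 did not pass. With inhibitor 1 rose, 0 fell and 8 did not pass (6.36% and 8.50% of all). From MTAP-negative to treated cells 7 rose and 0 fell (19.3% and 18.0% of all), with a median difference of 0.53 (all genes 0.00). Under the ACTB covariate 1 fell with MTAP. VGF, another granin-like precursor, read 7.31 ± 0.25, 8.27 ± 0.10 and 8.80 ± 0.26 in MTAP-negative, MTAP-positive and treated cells (log2, SD, n = 3). It rose by 0.96 ± 0.16 with MTAP (log2 ± SE; adjusted p = 0.00280) and by 1.49 ± 0.16 with MTAP and inhibitor (1.06e-04). RAB26, a small GTPase of secretory granules, rose by 0.82 ± 0.18 and 1.32 ± 0.18 (adjusted p = 0.0124 and 4.69e-04). RAB27A, also a GTPase of secretory vesicles, differed by 0.39 ± 0.17 between treated and MTAP-negative cells and missed the threshold (adjusted p = 0.0958). It passed with the replicate block, with array weights, with only those groups fitted, and without MTAP-positive replicate 1 or 2. With inhibitor VGF rose by 0.53 ± 0.16 (adjusted p = 0.0475), a call lost in 9 of 17 alternatives, among them without MTAP-negative replicate 2 or any 1 MTAP-positive or treated array (adjusted p from 0.0600 to 0.149). Of the 33 genes listed, 21 had no values, CHGA and CHGB among them.

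Few annexins passed. Of 11 tested annexins and S100 partners 0 passed with MTAP (19.1% of all genes; limma, 5 at unadjusted p below 0.05), with a median difference of -0.17 (all genes 0.01), and 3 fell with arrays centred on their medians or quantile-normalized again. With inhibitor 1 rose and 1 fell (6.36% and 8.50% of all). Between treated and MTAP-negative cells 0 rose and 1 fell (19.3% and 18.0% of all). ANXA4 fell by 0.47 with inhibitor (adjusted p = 0.0151, lost without treated replicate 2 or 3 at 0.0625 to 0.0716), and ANXA1 fell by 0.36 between treated and MTAP-negative cells (adjusted p = 0.0356, lost in 7 of 17 alternatives, among them each of 5 that left out 1 MTAP-negative array or treated replicate 1 or 2, at 0.0656 to 0.137). ANXA2, the brightest, differed by -0.17 ± 0.10 with MTAP (adjusted p = 0.239).

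Of 6 tested genes of hyaluronan metabolism, 1 rose and 0 fell with MTAP (11.7% and 7.36% of all genes). With inhibitor 0 rose and 3 fell (6.36% and 8.50% of all), and 1 fell where 1 treated array, MTAP-negative replicate 1 or MTAP-positive replicate 2 was left out. CEMIP2, the homologue of CEMIP in the cell membrane, read 7.81 ± 0.11, 8.26 ± 0.11 and 7.52 ± 0.21 in the 3 groups (log2, SD, n = 3). CEMIP2 fell by 0.73 with inhibitor (adjusted p = 0.00507). With MTAP it rose by 0.44 (adjusted p = 0.0327), a call lost in 8 of 17 alternatives, among them centred arrays and each of 5 that left out 1 MTAP-negative array or MTAP-positive replicate 1 or 3 (adjusted p from 0.0564 to 0.0978). The hyaluronan receptor HMMR, which also acts in mitosis, fell by 1.07 between treated and MTAP-negative cells (adjusted p = 9.96e-04). The UDP-glucose enzyme UGP2 differed by 0.06 with MTAP (adjusted p = 0.800).

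GXYLT1, which carries out the same xylosylation as GXYLT2, fell where GXYLT2 was higher. GXYLT1 read 9.15 ± 0.13, 8.32 ± 0.49 and 8.36 ± 0.25 in the 3 groups (log2, SD, n = 3). It fell by 0.83 with MTAP (adjusted p = 0.0263), a call lost with the ACTB covariate (0.171) and without any 1 MTAP-negative array (adjusted p from 0.0554 to 0.0809). Between treated and MTAP-negative cells it fell by 0.79 (adjusted p = 0.0168), lost in 3 of 16 alternatives, among them without MTAP-negative replicate 3 or treated replicate 1 (0.0538 to 0.0642). Of 9 tested genes of Notch glycosylation, receptors and ligands, 3 rose and 1 fell with MTAP (11.7% and 7.36% of all genes), and 0 passed with inhibitor (14.9% of all; limma, 3 at unadjusted p below 0.05). With arrays centred on their medians 0 rose and 1 fell with MTAP, 1 rose without MTAP-negative replicate 1 or 3, MTAP-positive replicate 1 or treated replicate 3, and 0 rose without MTAP-positive replicate 3. The fucose-modifying enzyme RFNG rose by 0.92 between treated and MTAP-negative cells (adjusted p = 0.0225, lost in 3 of 17 alternatives, among them without treated replicate 1 or 3 at 0.0679 to 0.0726). EOGT, which adds GlcNAc to EGF repeats, was called in no comparison of the main fit, though it passed for the inhibitor with array weights.

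Few relatives of PAEP and TEX19 were measured. Of 26 lipocalins and fatty acid binding proteins 5 had values and 1, FABP5, was tested. FABP5 fell by 0.99 with MTAP (adjusted p = 3.17e-04), from 11.33 ± 0.15 to 10.34 ± 0.11 (log2, SD, n = 3). Of 33 genes of germline defence and DNA methylation 8 had values and 3 were tested. UHRF1, the partner of the maintenance DNA methyltransferase, fell by 0.92 with inhibitor (adjusted p = 0.00354), from 10.22 ± 0.16 to 9.30 ± 0.15. DNMT1, that methyltransferase, differed by -0.32 and missed the threshold (adjusted p = 0.0745, though it passed with the replicate block).

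Paraspeckle proteins and other noncoding RNAs were set beside NEAT1. Of 16 tested paraspeckle proteins 0 passed with MTAP (19.1% of all genes; limma, 2 at unadjusted p below 0.05), 3 fell and 0 rose with inhibitor (8.50% and 6.36%), and 8 fell and 1 rose between treated and MTAP-negative cells (18.0% and 19.3% of all genes). In place of 8, 5 fell without MTAP-negative replicate 1 or 2 or treated replicate 2, and 4 without treated replicate 3. RBM14 and TAF15, RNA-binding proteins of these bodies, fell by 0.88 and 0.65 with inhibitor (adjusted p = 0.00354 and 0.00267), to 7.82 ± 0.24 and 7.83 ± 0.07. NONO, a core protein of paraspeckles, differed by -0.12 (adjusted p = 0.488). Of 13 other noncoding RNA genes, 1 rose and 3 fell with MTAP (11.7% and 7.36% of all genes), and 4 rose and 0 fell with inhibitor (6.36% and 8.50%). Without treated replicate 2 or 3, 2 rose with inhibitor. Without MTAP-negative replicate 1 or 3, MTAP-positive replicate 3 or treated replicate 3, 1 fell with MTAP. EPB41L4A-AS1 rose by 0.89 with inhibitor (adjusted p = 0.00582), to 10.56 ± 0.13. MIR100HG, a microRNA host gene, rose by 0.89 too (adjusted p = 0.0155, lost without treated replicate 2 or 3 at 0.0565 to 0.0656) and by 1.43 between treated and MTAP-negative cells (4.91e-04). With the replicate block, 5 paraspeckle proteins, 2 genes of germline defence and DNA methylation and 0 other noncoding RNAs fell with inhibitor, 2 secretory pathway genes rose with it, and of the annexins and their S100 partners 1 rose and 2 fell with MTAP. Every call named in these lists without a loss beside it held in the 17 alternatives, except that TAF15 was tested in 16 of them, where its call held.

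The genes whose values ran most like each of the 7 were found by Pearson's r over the 9 arrays, among 7003 other tested genes, as a description. The arrays share their groups, which r does not set apart from the spread within them. PAEP ran most like TXNIP (r = 0.996), which read 8.64, 10.75 and 12.39 in MTAP-negative, MTAP-positive and treated cells (group means, log2), and like MARK4 (0.994). PAX8-AS1 ran most like MARK4 (0.998) and SRPX (0.997), SCG2 like MYRF and FBLIM1 (0.994 each), and CEMIP like NR2C2 (0.988) and ARHGAP9 (0.984). ANXA10 ran most like VEGFC and YBEY (0.981 each), GXYLT2 like ADCY3 (0.986) and ADNP (0.969), and TEX19 like ZFP62 (0.981) and ERCC5 (0.980). An r above 0.9 was found for 388 genes with PAEP, 374 with PAX8-AS1 and 368 with SCG2, but for 44 with GXYLT2 and 68 with TEX19. Among the 7, PAEP and PAX8-AS1 ran most alike (r = 0.992), and GXYLT2 and TEX19 least (-0.22).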

How the data were processed

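Total RNA of 9 HT1080 samples was measured on Affymetrix arrays, and the deposited values are log2 expression. The submitters' processing notes name RMA, with no version given in the sources used here. RMA sets the arrays to a common distribution, so the values show relative, not absolute, change. Of 54675 probe sets 17474 had values, each at 6.64 or more on at least 3 arrays. A probe set was named where the array's annotation gave 1 gene (15485 kept), and of several probe sets of a gene the one brightest on average stood for it. Genes above 7.96, the 40th percentile of the values, on at least 3 arrays were tested (7011 of 9453; MTAP was left out of counts, leaving 7010). limma 3.58.1 in R 4.3.3 fitted the 3 groups on all 9 arrays, with Benjamini-Hochberg adjustment over all genes tested and a threshold of 0.05, and was tested on simulated data. The 8 genes and the gene lists were chosen with earlier results of these data known, so the lists are no independent evidence. In each list the called genes with the largest difference, at most 2, and the brightest gene called in no comparison were named. For likeness the 2 genes of highest r, and for position the nearest tested gene on each side, were named. Markers, PAX8 and the ABHD17C arrays were added as description, ABHD17C after its values were seen.

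Same-numbered arrays deviated together: the correlation of their deviations from the group means was over 0.1 in 7 of 9 pairs (0.02 to 0.77). It was over 0.1 in each of the 3 pairs of MTAP-negative with MTAP-positive and of MTAP-positive with treated arrays, so the numbers were taken as pairing there, from the data and not from a stated batch. The main fit did not use this pairing, so its SEs and p-values treat the arrays as unpaired. The pairing entered only as the replicate block among the alternatives and in differences within replicate numbers. With that block, genes called went from 1336 to 1917 with MTAP and from 1042 to 1589 with inhibitor. Alternatives were 2 other scalings, no filter on dim genes, the mean of a gene's probe sets, a replicate block, only the groups compared, array weights, an ACTB covariate and leaving out each array. Sequences came from RefSeq on GRCh38.p14.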

Additional observations from a re-analysis of the deposited data

How the results depend on the processing

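Of 357 recomputed differences of the 7 genes with their own probe set, 338 moved by less than the SD between replicates and 19 by more, and none changed sign. Many could not move. No filter, the mean of probe sets, the replicate block, only the groups compared, or leaving out an array of the third group kept a difference the same. Leaving out 1 of 3 arrays of a compared group cannot move it by that SD either. The 338 are thus no measure of stability. The 19 came with array weights, another quantile normalization or the ACTB covariate. For MTAP-positive against MTAP-negative cells, the 1336 genes called (820 higher, 516 lower) became 752 with only those groups fitted, 2164 with array weights, 470 with the ACTB covariate and 745 to 1583 when 1 array was left out (745 without MTAP-negative replicate 3, 782 without MTAP-positive replicate 3). The 13 related genes called there became 20 with no filter on dim genes, 21 with the replicate block, 7 with only those groups, 24 with array weights, 6 with the ACTB covariate and 6 to 13 when 1 array was left out. For the inhibitor against untreated MTAP-positive cells, the 1042 genes called became 1589 with the replicate block, 1832 with array weights and 372 to 1055 when 1 array was left out (372 without treated replicate 3). The 14 related genes became 26 with array weights, 9 with the ACTB covariate and 6 to 14 when 1 array was left out. Between treated and MTAP-negative cells the 2613 genes called and the 34 related genes stayed within 1.5 times, at 1844 to 2959 and 24 to 37 when 1 array was left out. The cause of these moves was not tested. Signals near 6.64 limit what can be said of PAEP, SCG2 and PAX8-AS1 in MTAP-negative cells, where no array reached that level.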
